A study of Mus musculus with 31 samples.

Results

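Hox genes of the 4 clusters were taken as every gene whose symbol on the array platform is Hoxa, Hoxb, Hoxc or Hoxd followed by a number, and 33 of the 39 such genes in a mouse gene table (assembly GRCm38.p6) were measured by a probe set with 1 symbol, out of 18194 genes measured in all. They comprise 9 of 11 Hoxa genes, 9 of 10 Hoxb genes, 7 of 9 Hoxc genes and 8 of 9 Hoxd genes. The other 6 were not analysed here. RNA was measured on 31 Affymetrix arrays, 1 per sample, of induced pluripotent stem cells (iPSCs), which are body cells returned to an embryo-like state, and of embryoid bodies, the aggregates in which such cells differentiate without added lineage signals. The mutant cells, by their labels, lacked Nos3, the gene for endothelial nitric oxide synthase, and came from mice of strain B6.129P2-Nos3tm1unc/J, whereas the wild type control cells came from CD1 mice, so genotype and strain cannot be told apart. At day 0 the iPSCs of both genotypes grew on inactivated mouse embryonic fibroblasts (feeder cells), and 6 Nos3-/- and 10 control arrays were made; at day 11 the embryoid bodies gave 6 Nos3-/- and 9 control arrays. Both sets of iPSCs had been reprogrammed by Sendai virus, starting from fibroblasts of the tail tip of adult male mice. The labels do not say whether the arrays of a group come from separate clones or cultures, so p-values reflect only how far these arrays vary, and that variation may be technical.

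Hox genes encode homeodomain transcription factors that give the embryo its positions from head to tail. In each cluster they lie in the order in which they are switched on, and genes at the same place in different clusters, the paralogues, share a number. Low numbers mark the hindbrain and neck, middle numbers the trunk, and high numbers the lumbar and tail regions and the ends of the limbs. Undifferentiated pluripotent cells hold the clusters silent under Polycomb proteins, while fibroblasts of the body and limbs keep expressing the Hox genes of the place they came from. Retinoic acid, Wnt, FGF and the Cdx factors open the clusters as cells leave pluripotency.

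Levels are log2 intensities, so a difference of 1 is a factor of 2; levels of different probe sets are not compared. Of the 33 Hox genes, 16 had a mean level under 6.03, the lower tertile of all genes, and 30 were under the median gene, which lies at 7.42. The single Nos3 probe set was not lower on the arrays labelled Nos3-/-: it averaged 6.88 ± 0.14 there and 7.05 ± 0.21 on control arrays at day 11, and 6.98 ± 0.18 against 6.65 ± 0.24 at day 0, where it was higher (0.33, adjusted p = 0.0295). Whether its probes lie in the disrupted part of the gene is not known here, so it gives no check of the labels, from which the genotypes are taken. Pou5f1, the pluripotency factor Oct4, was high in every group, with means from 11.66 to 12.69. The mean correlation of an array with the rest of its group was lowest on Nos3-/- replicate 3 at day 11 (0.961) and Nos3-/- replicate 3 at day 0 (0.971). Several results that rest on these arrays are also given without them. In bulk RNA, fewer cells of a type and less RNA per cell cannot be told apart.

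At day 11, Hox genes were lower in Nos3-/- embryoid bodies than in control ones in every cluster, and none was higher. Of the 33 genes, 15 were lower (45.5%) and 0 higher at an adjusted p under 0.05 (limma, Benjamini-Hochberg over all genes). Over all genes tested, 5.29% were lower and 4.41% higher. The Hox differences had a median of -0.66, against 0.00 over all genes, 27 of the 33 lay below 0 (81.8%, against 49.9% of all genes), and 17 had an unadjusted p under 0.05 (51.5%, against 21.5%). Of the 15, 10 differed by at least 1 on the log2 scale, the largest differences being those of Hoxd1 (4.40-fold), Hoxa9 (3.74-fold), Hoxa10 (3.38-fold) and Hoxb6 (2.81-fold). The mean over all 33 genes was between 5.14 and 5.83 on the Nos3-/- arrays, with a median of 5.54, and between 5.60 and 6.69 on the control arrays, with a median of 6.27. The lowest control arrays therefore lay within the Nos3-/- range. The count was 6 of 9 in Hoxb, 4 of 8 in Hoxd, 4 of 9 in Hoxa and 1 of 7 in Hoxc. By position it was 4 of 7 for paralogues 1 to 3, 5 of 12 for paralogues 4 to 8 and 6 of 14 for paralogues 9 to 13. In Hoxb the lower genes form an unbroken run of measured genes, Hoxb1 to Hoxb6, whereas Hoxb7 (0.02 ± 0.06, SE), Hoxb9 (0.01 ± 0.21) and Hoxb13 (0.27 ± 0.38) were not called. In Hoxa the run covers Hoxa7, Hoxa9, Hoxa10 and Hoxa11, and Hoxa2 to Hoxa5 differed by -0.18 to 0.01 and were not called. The other Hoxa5 probe set differed by -0.53 ± 0.21 and was not called either (adjusted p = 0.112 over probe sets).

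**Figure D1:**
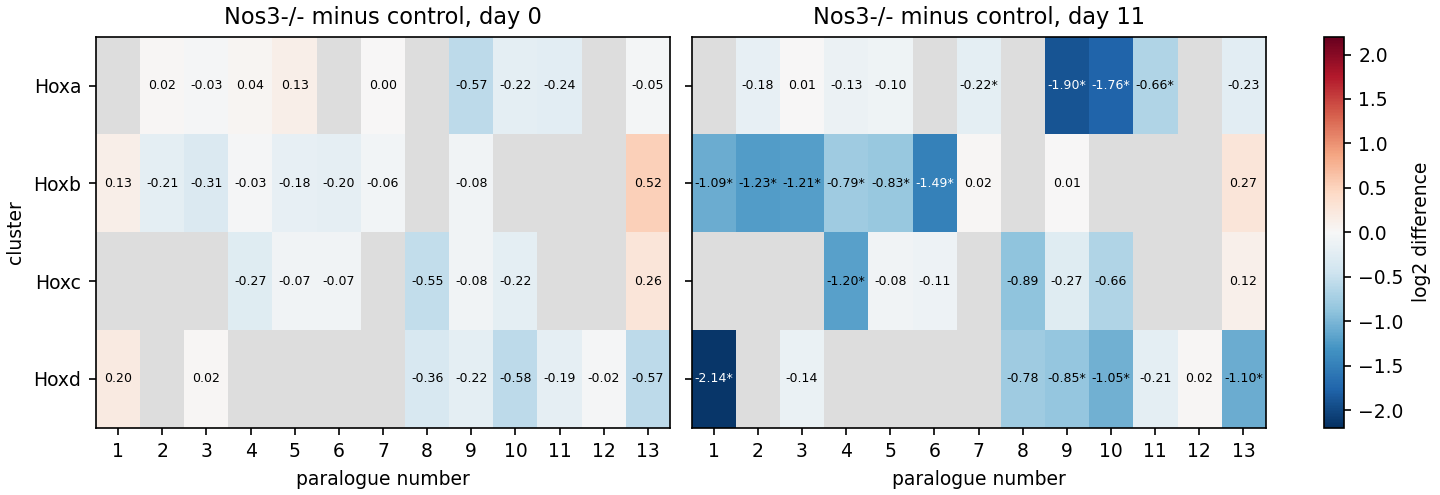
Differences between Nos3-/- and control cells (log2, colour and number) for each measured Hox gene, by cluster (rows) and paralogue number (columns), at day 0 and day 11. Grey squares were not analysed here and stars mark an adjusted p under 0.05: day 0 has 0 stars, day 11 has 15, all on negative values.

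Among the paralogues 1 to 3, which pattern the hindbrain and pharyngeal arches, Hoxd1 differed most. Hoxd1, a retinoic acid responsive gene, had a level of 3.03 at the lowest, 4.59 at the median and 5.60 at the highest on the 6 Nos3-/- arrays, against 5.97, 6.56 and 7.81 on the 9 control arrays. The groups did not overlap, and the difference was -2.14 ± 0.28 (SE; adjusted p = 3.50e-06). Only 2 Hox genes had groups without overlap, Hoxd1 and Hoxc4 (6.06%), against 1.44% of all genes with every Nos3-/- array below every control array. Hoxb1, which gives the hindbrain segment of the facial nerve its identity, ran from 3.63 over a median of 4.44 to 5.25 on Nos3-/- arrays, and from 4.49 over 5.46 to 7.30 on control arrays. The difference was -1.09 ± 0.29 (adjusted p = 0.0133), with overlap in the range between 4.49 and 5.25. The Hoxb1 call was lost when the model held the day 11 arrays alone (adjusted p = 0.110). Hoxb2, a gene of the same hindbrain region that HOXB1 and KROX20 activate, lay between 6.22 and 8.27 with a median of 7.69 on Nos3-/- arrays, against 7.63 to 9.10 with a median of 8.92 on control arrays. It was lower by 2.34-fold (-1.23 ± 0.24, adjusted p = 6.27e-04). Hoxb3 was lower by 2.31-fold (-1.21 ± 0.26, adjusted p = 0.00193). It acts with Hoxa3 in the hindbrain and pharyngeal arches, yet Hoxa3 itself differed by 0.01 ± 0.11 and Hoxd3 by -0.14 ± 0.08. A further Hoxb3 probe set was also lower, by -0.31 ± 0.09 (adjusted p = 0.0297 over probe sets).

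**Figure D2:**
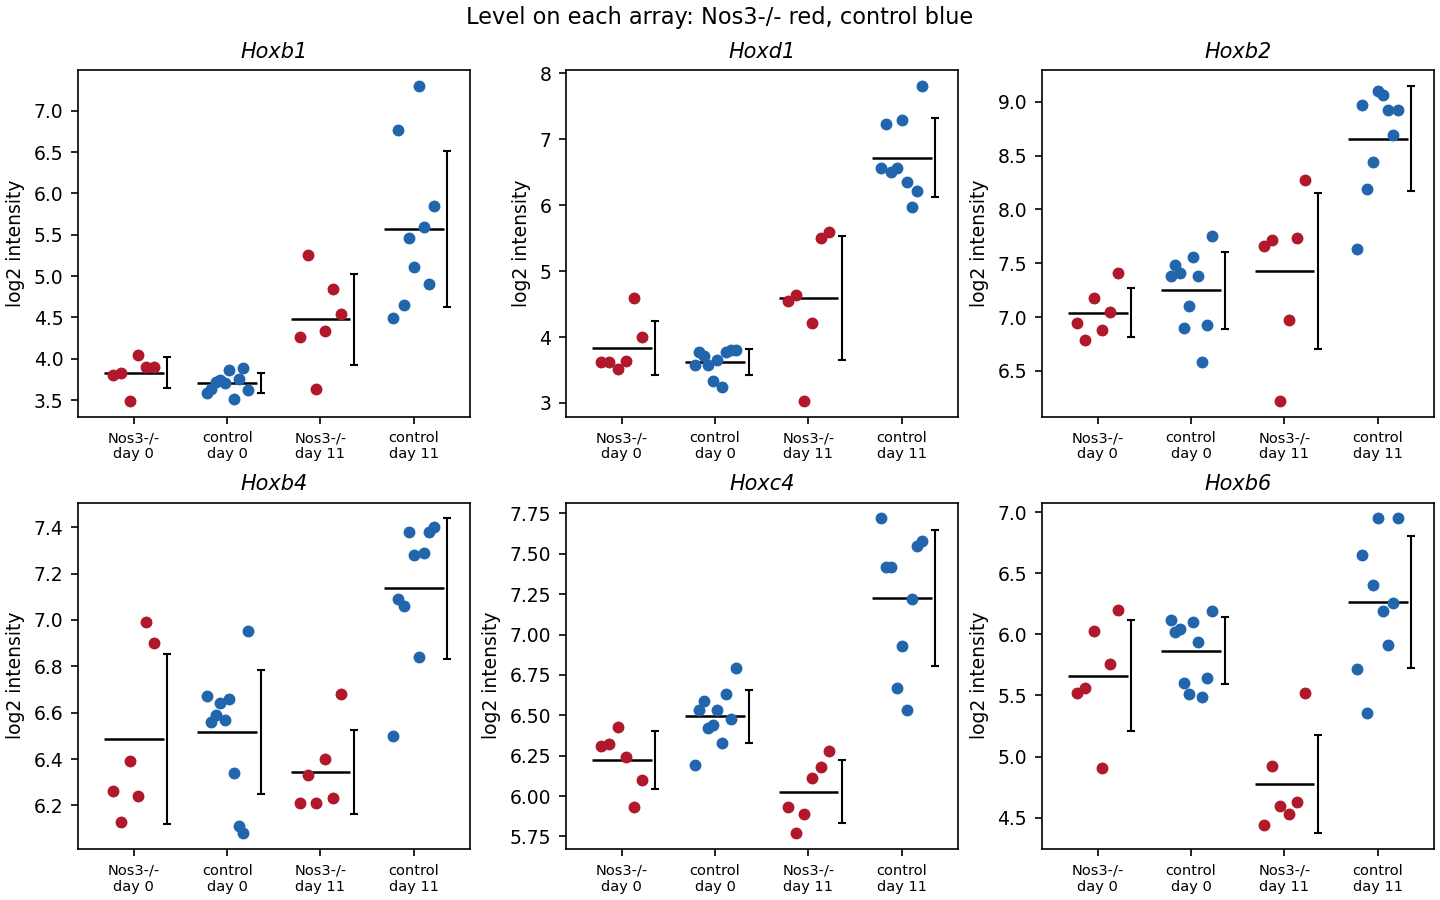
Log2 intensity of 6 Hox genes on every array, with Nos3-/- arrays (red, n = 6 at each day) left of control arrays (blue, n = 10 at day 0 and 9 at day 11) within each day; lines are means and bars the SD. For Hoxd1 and Hoxc4 every Nos3-/- array at day 11 lies below every control array, and for the other genes the ranges overlap.

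The bases just before the start of 3 of these genes are shown because Hoxd1 and Hoxc4 were the Hox genes whose groups did not overlap at day 11, and Hoxb1 has an upstream region known to be bound by HOX and PBX proteins together. Each run holds the 250 bases before the start on the plus strand of GRCm38.p6, from RefSeq, 5′ to 3′, at chr2:74762730-74762979 for Hoxd1, chr15:103034145-103034394 for Hoxc4 and chr11:96365508-96365757 for Hoxb1. Capitals mark matches on either strand to CATAAA (a Cdx-type motif), TGATNNAT (a HOX-PBX motif) or TGACAG (a MEIS motif).
Hoxd1: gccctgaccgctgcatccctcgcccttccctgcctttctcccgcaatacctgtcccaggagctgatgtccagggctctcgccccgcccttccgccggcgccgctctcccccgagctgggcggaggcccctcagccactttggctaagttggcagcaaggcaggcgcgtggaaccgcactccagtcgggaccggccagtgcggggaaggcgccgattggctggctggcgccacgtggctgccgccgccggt
Hoxc4: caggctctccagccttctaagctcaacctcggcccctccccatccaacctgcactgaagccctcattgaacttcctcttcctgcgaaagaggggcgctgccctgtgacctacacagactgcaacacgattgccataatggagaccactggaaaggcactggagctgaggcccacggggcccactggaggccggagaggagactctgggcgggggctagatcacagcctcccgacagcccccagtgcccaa
Hoxb1: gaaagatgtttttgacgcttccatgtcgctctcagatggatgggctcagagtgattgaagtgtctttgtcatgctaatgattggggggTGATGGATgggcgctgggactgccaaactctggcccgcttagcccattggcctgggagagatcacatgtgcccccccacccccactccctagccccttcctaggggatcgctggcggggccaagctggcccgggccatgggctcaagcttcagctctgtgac

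Only the Hoxb1 run holds a match, 1 HOX-PBX motif that begins 162 bases before the start; the letters searched do not occur in the other runs. GC content was 71.6% for Hoxd1, 62.0% for Hoxc4 and 59.2% for Hoxb1. Of the 33 measured Hox genes, 19 had a promoter in the table, with 21 promoters in all. Among these 21, CATAAA occurred in 3 (14.3%), TGATNNAT in 3 (14.3%) and TGACAG in 2 (9.52%). The same letters occurred in 10.8%, 7.68% and 15.9% of all 32851 promoters of this length. The 11 genes that were lower at day 11 and had a promoter in the table gave 12 promoters, with 1, 1 and 0 matches. These counts are descriptions of the letters only, and the binding of any factor was not measured.

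Among the paralogues 4 to 8, Hoxc4 had the smallest adjusted p of all Hox genes. Hoxc4, which helps to shape the neck vertebrae and the oesophagus, lay between 5.77 and 6.28 with a median of 6.02 on Nos3-/- arrays, against 6.53 to 7.72 with a median of 7.42 on control arrays. The groups did not overlap, and the difference was -1.20 ± 0.14 (adjusted p = 4.41e-07). It was the only called member of its cluster: Hoxc5 differed by -0.08 ± 0.07 and Hoxc6 by -0.11 ± 0.08. Further Hoxc5 probe sets differed by -0.53 ± 0.18 and -0.14 ± 0.10 and were not called (adjusted p = 0.0684 and 0.474 over probe sets). Hoxb6, a gene of trunk and hindlimb mesoderm, had 4.44, 4.62 and 5.52 as its lowest, median and highest levels on Nos3-/- arrays, against 5.36, 6.26 and 6.95 on control arrays. A single Nos3-/- array, replicate 6 with 5.52, exceeded the lowest control array, replicate 3 with 5.36, and the difference was -1.49 ± 0.21 (adjusted p = 1.34e-05). Hoxb4, known for expanding blood stem cells, lay between 6.21 and 6.68 with a median of 6.28 on Nos3-/- arrays, against 6.50 to 7.40 with a median of 7.28 on control arrays. It was lower by 1.73-fold (-0.79 ± 0.15, adjusted p = 3.96e-04), and its other probe set by -0.48 ± 0.11 (adjusted p = 0.00238 over probe sets). Hoxb5, needed in the neural crest that forms the gut nerves, was lower by 1.77-fold (-0.83 ± 0.18, adjusted p = 0.00207). Hoxa7 was lower by 1.16-fold only (-0.22 ± 0.07, adjusted p = 0.0450). That call was lost in 16 of 31 omissions of 1 array, among them arrays of day 0, with an adjusted p up to 0.0935. Hoxc8, a gene of the thoracic spine, differed by -0.89 ± 0.45 and Hoxd8 by -0.78 ± 0.26, and neither was called (adjusted p = 0.250 and 0.0544). Over omissions of 1 array the Hoxc8 difference ran from -1.09 to -0.39, without a call. A further Hoxd8 probe set differed by -0.81 ± 0.23 with an adjusted p of 0.0215 over probe sets, so the call for Hoxd8 depends on the probe set.

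Among the paralogues 9 to 13, the 6 lower genes were Hoxa9, Hoxa10, Hoxa11, Hoxd9, Hoxd10 and Hoxd13. Hoxa9, a regulator of blood progenitors and of the posterior trunk, lay between 4.35 and 6.31 with a median of 5.42 on Nos3-/- arrays, against 5.51 to 9.07 with a median of 7.67 on control arrays. The difference was -1.90 ± 0.44 (adjusted p = 0.00403), with 2 control arrays inside the Nos3-/- range. Its other probe set differed by -0.16 ± 0.10 and was not called. Hoxa10, which patterns the lumbar spine and the uterus, lay between 4.49 and 5.37 with a median of 5.19 on Nos3-/- arrays, against 4.98 to 8.40 with a median of 7.15 on control arrays. Control replicates 1 and 3, with 4.98 and 5.12, were inside the Nos3-/- range, and the difference was -1.76 ± 0.39 (adjusted p = 0.00292). Another probe set, of low level, differed by -0.02 ± 0.07. Hoxd13, the gene of digits and genital bud, lay between 4.98 and 5.63 with a median of 5.36 on Nos3-/- arrays, against 5.47 to 7.06 with a median of 6.63 on control arrays. It was lower by 2.15-fold (-1.10 ± 0.24, adjusted p = 0.00189), while its other probe set differed by -0.09 ± 0.11. Hoxa11, a gene of the forearm and kidney, was lower by 1.58-fold (-0.66 ± 0.15, adjusted p = 0.00272). Hoxd9 and Hoxd10, which act in the limb and in lumbar motor neurons, were lower by -0.85 ± 0.25 (adjusted p = 0.0251) and -1.05 ± 0.34 (adjusted p = 0.0452). The call of Hoxd9 did not survive the omission of day 11 Nos3-/- replicate 1 (-0.77, adjusted p = 0.0738) or 3 (-0.70, adjusted p = 0.0686), and that of Hoxd10 was lost in 19 of 31 omissions of 1 array, with an adjusted p up to 0.0913. Hoxa13, Hoxb9, Hoxb13, Hoxc9, Hoxc10, Hoxc13, Hoxd11 and Hoxd12 were not called, with differences from -0.66 (Hoxc10) to 0.27 (Hoxb13).

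Control embryoid bodies varied widely among themselves in several posterior genes. The SD of Hoxa10 was 0.34 over the Nos3-/- arrays and 1.27 over the control arrays, that of Hoxc10 0.23 and 1.10, and that of Hoxd10 0.31 and 1.08. For Hoxc8 the order was the other way, with 1.33 over the Nos3-/- arrays and 0.98 over the control arrays. Nos3-/- replicate 3 had 4.02 and the other Nos3-/- arrays lay between 6.11 and 7.52, so the reversed order rests on that array. No difference in spread was tested. Control replicates 1 and 3 were the lowest control arrays for Hoxa9 (5.79 and 5.51), Hoxc8 (6.10 and 5.88) and Hoxc10 (4.17 and 4.75), and control replicate 9 was the highest for all of these. Hoxd1 did not follow this order: control replicate 1 had 6.57 and replicate 3 had 6.51, beside a control median of 6.56. Hoxc4 was highest of all on control replicate 1, with 7.72. Mean levels of the fibroblast list (14 collagen, matrix and mesenchyme genes) on these arrays were 8.34 on control replicate 1, 8.95 on replicate 3 and 9.84 on replicate 9. On control replicates 2, 4, 5, 6, 7 and 8 they were 9.04, 9.06, 9.87, 9.19, 10.01 and 9.99. Hoxa9 was 8.25 on control replicate 2, 6.76 on replicate 6, 8.02 on replicate 7 and 9.07 on replicate 9. A relation between the list and the Hox genes was not tested. Nos3-/- replicate 3 had the lowest values of its group for Hoxd1 (3.03), Hoxb2 (6.22) and Hoxc8 (4.02). The mean of the cardiomyocyte list was 5.66 on that array and between 7.69 and 10.53 on the other Nos3-/- arrays of day 11.

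**Figure D3:**
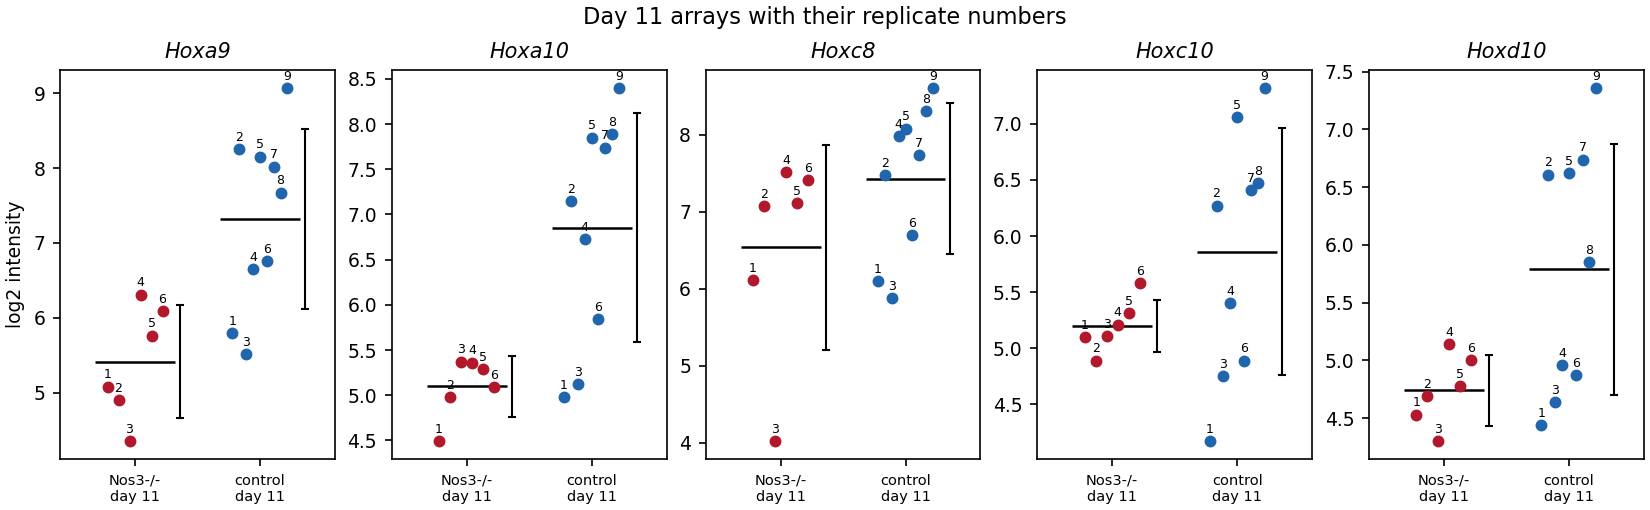
Log2 intensity of 5 Hox genes of the trunk and posterior body on the day 11 arrays, Nos3-/- (red, n = 6) left of control (blue, n = 9), with replicate numbers beside the points, lines for means and bars for SD. Control replicates 1 and 3 lie low in every panel and control replicate 9 is highest in every panel; numbers of different groups do not pair arrays.

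With Nos3-/- replicate 3 of both days left out, chosen after seeing the data, the day 11 count was within 1.5 times of the reported one and 0 genes were higher. Hoxa7, Hoxd9 and Hoxd10 then lost their calls (adjusted p = 0.0943, 0.0701 and 0.0773). Of the 15 calls, 12 were kept in every omission of 1 array.

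At day 0 none of the 33 Hox genes was called between the genotypes (limma), against 9.17% higher and 7.47% lower over all genes. The median difference was -0.08, against 0.01 over all genes, and 1 gene had an unadjusted p under 0.05 (3.03%, against 30.5% of all genes). Of the 33 differences, 25 lay below 0 (75.8%, against 48.0% of all genes), so most leaned the same way as at day 11. A further probe set of Hoxc5 was lower at day 0, by -0.53 ± 0.18 (adjusted p = 0.0452 over probe sets), while the probe set used for Hoxc5 differed by -0.07 ± 0.07. The gene with the unadjusted p under 0.05 was Hoxd13, with levels from 6.38 over a median of 6.94 to 7.49 on Nos3-/- arrays and from 6.59 over 7.45 to 8.17 on control arrays. Its difference of -0.57 ± 0.23 had an adjusted p of 0.0911, and it was called without Nos3-/- replicate 1 (-0.68, adjusted p = 0.0496) or control replicate 8 (-0.67, adjusted p = 0.0365). Hoxd1 had a difference of 0.20 ± 0.28 at day 0, Hoxc4 of -0.27 ± 0.14 and Hoxb6 of -0.20 ± 0.21.

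Hoxb13 and Hoxc13, the last genes of their clusters and known from prostate and tail (Hoxb13) and from hair follicles (Hoxc13), were high on 3 day 0 arrays. On Nos3-/- replicates 5 and 6 the level of Hoxb13 was 7.14 and 7.65, and the other Nos3-/- arrays of day 0 lay between 5.05 and 5.72. On control replicate 1 it was 8.09, with the other control arrays between 4.96 and 5.45. Hoxc13 was highest on the same arrays, with 7.33 and 7.72 on Nos3-/- replicates 5 and 6 and 7.62 on control replicate 1. On the other arrays of day 0 it lay between 5.63 and 6.55. Hoxb9 was also highest in its groups on these arrays, with 6.77 and 7.12 on Nos3-/- replicates 5 and 6 and 7.76 on control replicate 1. Its other day 0 values ran from 6.14 to 7.20. The group difference of Hoxb13 was 0.52 ± 0.37 (adjusted p = 0.362), and it reached 0.82 with an adjusted p of 0.0340 without control replicate 1. At day 11 no array of either group exceeded 5.65 for Hoxb13.

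**Figure D4:**
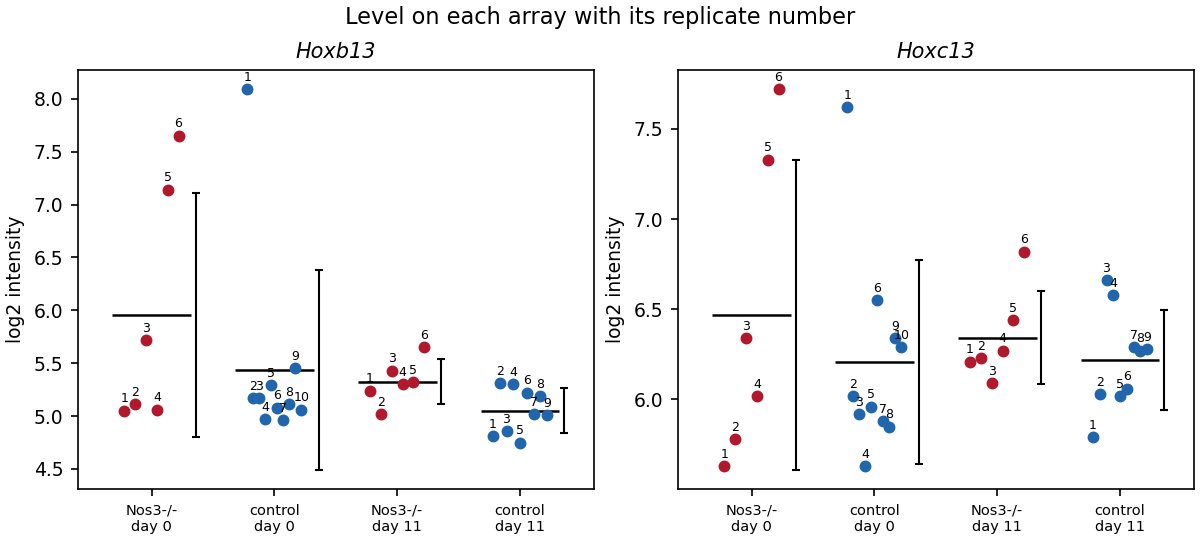
Log2 intensity of Hoxb13 and Hoxc13 on every array, with Nos3-/- arrays (red) left of control arrays (blue) within each day and replicate numbers beside the points; lines are means and bars the SD. Nos3-/- replicates 5 and 6 and control replicate 1 of day 0 stand above the other day 0 arrays in both genes.

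From day 0 to day 11, control cells raised the anterior Hox genes. In control, 10 Hox genes were higher at day 11 (30.3%, against 16.0% of all genes) and 4 were lower (12.1%, against 18.2%). Raised were 6 of the 7 measured paralogues 1 to 3, but 3 of 12 paralogues 4 to 8 and 1 of 14 paralogues 9 to 13. Hoxd1 averaged 6.72 ± 0.59 at day 11 (SD, n = 9) and 3.63 ± 0.20 at day 0 (n = 10), an 8.56-fold increase (3.10 ± 0.25, SE; adjusted p = 5.21e-11). Hoxb1 averaged 5.57 ± 0.95 at day 11 and 3.70 ± 0.12 at day 0 (1.87 ± 0.25, adjusted p = 1.25e-06). Every day 11 array exceeded every day 0 array in these genes, which was so for 2 Hox genes (6.06%) and 2.89% of all genes. Hoxb2 rose by 2.66-fold, Hoxd9 by 2.27-fold, Hoxb5 and Hoxc4 by 1.66-fold each, Hoxb4 by 1.54-fold and Hoxb3 by 0.59 on the log2 scale. The rises of Hoxa2, a gene of the face and middle ear (1.28-fold), and of Hoxd3 (0.26 ± 0.07, SE) were small. Hoxa2 lost its call in 5 and Hoxb3 in 13 of 31 omissions of 1 array, with an adjusted p up to 0.0787 and 0.0946. The 4 genes that fell were Hoxa3, Hoxd11, Hoxd12 and Hoxd13, of which Hoxd13 changed most (-1.06 ± 0.21, adjusted p = 1.69e-04). The other probe set of Hoxd13 changed by -0.12 ± 0.09 and was not called. The fall of Hoxa3 (-0.36 ± 0.09) was read by 1 of its 4 probe sets; the others changed by -0.03, -0.03 and 0.24 and were not called, and the mean of all of them changed by -0.05 (adjusted p = 0.589). Of the probe sets not used, 1 of Hoxc5 (-0.23) and 2 of Hoxc6 (-0.39 each) were also lower at day 11 in control. Hoxd12 was the only Hox gene with every day 11 array below every day 0 array in control (3.03%, against 3.63% of all genes).

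In Nos3-/- cells no Hox gene passed as raised over the same time (13.0% of all genes did), and 9 fell (27.3%, against 18.1%). The 9 were Hoxa3, Hoxa5, Hoxa7, Hoxa10, Hoxa11, Hoxb6, Hoxd11, Hoxd12 and Hoxd13. Of the probe sets not used, 1 of Hoxc5 (-0.32) and 1 of Hoxc6 (-0.60) were also lower at day 11 in Nos3-/- cells, as in control. Hoxa10 averaged 5.10 ± 0.34 at day 11 and 6.76 ± 0.28 at day 0 (SD, n = 6 each), a change of -1.66 ± 0.43 (adjusted p = 0.00431). Hoxd13 averaged 5.33 ± 0.24 at day 11 and 6.92 ± 0.45 at day 0 (-1.60 ± 0.26, adjusted p = 4.30e-05). The other probe sets of these genes were not called, with -0.01 ± 0.07 for Hoxa10, at a low level, and -0.24 ± 0.12 for Hoxd13. Hoxb6 averaged 4.77 ± 0.40 at day 11 and 5.66 ± 0.45 at day 0 (-0.89 ± 0.24, adjusted p = 0.00504). In Hoxa7, Hoxa10, Hoxa11 and Hoxd13 every day 11 array lay below every day 0 array (12.1%, against 4.58% of all genes). Hoxd1 averaged 4.59 ± 0.94 at day 11 and 3.83 ± 0.41 at day 0, a difference of 0.76 ± 0.31 with an adjusted p of 0.0607. Of the 33 genes, 12 had an unadjusted p under 0.05 in either direction (36.4%, against 41.8% of all genes). The absence of raised genes depends on single arrays. Without Nos3-/- replicate 3 of day 11, Hoxd1 (1.07, adjusted p = 0.00288), Hoxb2 (0.63, adjusted p = 0.0377) and Hoxd9 (0.70, adjusted p = 0.0479) passed as raised. Hoxd1 also passed without Nos3-/- replicate 5 of day 0 (0.91, adjusted p = 0.0350) or control replicate 9 of day 11 (0.76, adjusted p = 0.0458). The fall of Hoxa3 was not called with the mean of its 4 probe sets (-0.07, adjusted p = 0.506). Hoxa5 was read by a probe set that can bind related transcripts, and without such probe sets its change was -0.24 (adjusted p = 0.454). Of all genes called in this comparison 58.3% were lower, and centring the arrays on their medians moved that share to 69.1%. Calls of Hoxa3, Hoxa5, Hoxd11 and Hoxd12 were each lost in some omission of 1 array, Hoxa5 when Nos3-/- replicate 5 of day 0 was omitted (-0.21, adjusted p = 0.0616), while the other 5 were kept in every omission.

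**Figure D5:**
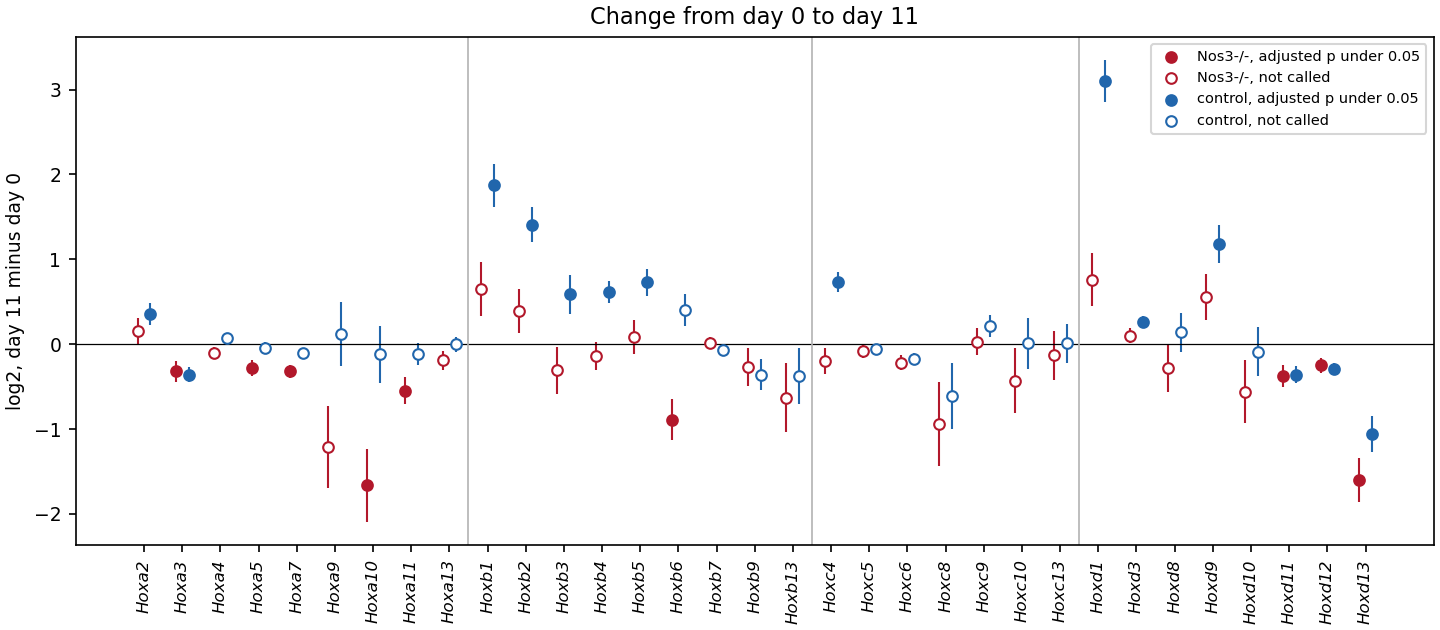
Change from day 0 to day 11 (log2, day 11 minus day 0, with SE bars) of each measured Hox gene, in Nos3-/- cells (red) beside control cells (blue), ordered by cluster and number; filled points have an adjusted p under 0.05. Filled blue points above 0 cluster in Hoxb1 to Hoxb5, and no red point above 0 is filled.

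The difference between genotypes in this change was tested directly. It was called for 3 of the 33 Hox genes, all below 0, that is, with the day 11 level lower relative to day 0 in Nos3-/- cells (9.09%, against 0.715% of all genes lower and 0.522% higher). They were Hoxd1 (-2.34 ± 0.40, SE; adjusted p = 0.00272), Hoxb6 (-1.29 ± 0.30, adjusted p = 0.0274) and Hoxc4 (-0.93 ± 0.20, adjusted p = 0.0181). Hoxc4 changed by -0.20 ± 0.15 in Nos3-/- cells and by 0.73 ± 0.12 in control cells, and Hoxb6 by -0.89 ± 0.24 and 0.40 ± 0.19. Hoxb6 lost the call without Nos3-/- replicate 5 (-1.27, adjusted p = 0.0586) or 6 (-1.18, adjusted p = 0.0625) of day 0, or Nos3-/- replicate 1 (-1.22, adjusted p = 0.0606) or 4 (-1.24, adjusted p = 0.0511) of day 11. Among the other anterior genes, the difference was -1.22 ± 0.41 for Hoxb1, -1.02 ± 0.33 for Hoxb2 and -0.76 ± 0.21 for Hoxb4, none of them called (adjusted p = 0.125, 0.116 and 0.0590). With array weights all of these passed (adjusted p = 0.0361, 0.0378 and 0.0121), and 9 Hox genes were called in place of 3. Hoxb4 also passed in 6 of 31 omissions of 1 array, with an adjusted p down to 0.0234. For Hoxd13, which fell in both genotypes by the probe set used, the difference in change was -0.54 ± 0.33 (adjusted p = 0.418). The comparisons over time and those between genotypes share arrays and are not independent of each other.

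Genes beside and inside the clusters were read as a further description of day 11. In Nos3-/- embryoid bodies 5.29% of all genes were lower at that day and 4.41% higher. Of the 16 nearest measured genes on the sides of the clusters, 2 were lower and 1 was higher in Nos3-/- embryoid bodies. The lower ones were Evx1, a homeobox gene of posterior mesoderm at the end of the Hoxa cluster (-1.38 ± 0.23, adjusted p = 9.05e-05), and its neighbour Evx1os (-0.89 ± 0.18, adjusted p = 9.52e-04). The higher one was Snx10 (0.58 ± 0.13, adjusted p = 0.00199). Evx2, the counterpart of Evx1 beside Hoxd, differed by 0.13 ± 0.08. Inside the clusters, the antisense transcripts Hoxa11os (-0.68 ± 0.16), Hoxb5os (-0.85 ± 0.19) and Hoxd3os1 (-0.78 ± 0.16) were lower, as was Gm38462 (-0.48 ± 0.13), and Gm15050 was not called (-0.29 ± 0.15). Each was read by the probe set of highest mean named for it, but the position of the probes relative to the Hox transcripts was not examined. The other probe sets of Hoxa11os and Hoxd3os1, both of low level, differed by -0.04 ± 0.07 and -0.03 ± 0.08 and were not called.

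Upstream of the Hox genes, Cdx2 was lower in Nos3-/- embryoid bodies. Cdx factors are homeodomain proteins that activate trunk Hox genes. Cdx2 lay between 6.00 and 7.72 with a median of 7.22 on Nos3-/- arrays of day 11, against 7.03 to 9.70 with a median of 8.64 on control arrays (-1.50 ± 0.30, adjusted p = 9.97e-04). It rose over time in both genotypes, by 1.26 ± 0.33 in Nos3-/- cells and 2.81 ± 0.26 in control cells, and the difference between these changes was not called (-1.56 ± 0.42, adjusted p = 0.0594). The list of upstream genes had 13 measured members, not all activators, since Cyp26a1 encodes an enzyme that degrades retinoic acid. Of the 13, 3 were lower at day 11 and 0 higher (5.29% and 4.41% of all genes). The lower ones were Cdx2, Cdx4 (-0.64 ± 0.17, adjusted p = 0.0149) and Tbx6, a mesoderm factor (-0.34 ± 0.10, adjusted p = 0.0314). Cdx4 was of low level, from 2.92 to 3.26 on Nos3-/- arrays and from 3.38 to 5.04 with a median of 3.61 on control arrays. At day 0, Cdx1 was higher (0.44 ± 0.10), and Fgf8 (-1.42 ± 0.46), the retinoic acid degrading enzyme gene Cyp26a1 (-2.55 ± 0.66) and Egr2, which encodes KROX20 (-0.95 ± 0.31), were lower. Over all genes, 9.17% were higher and 7.47% lower at day 0.

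Hox proteins bind DNA with TALE homeodomain partners. Of 8 measured TALE genes, Meis1 was lower in Nos3-/- cells at day 11 (-1.65 ± 0.30, adjusted p = 3.35e-04) and Pbx4 higher (0.64 ± 0.11, adjusted p = 2.62e-04). Both differed in the same direction at day 0, Meis1 by -1.25 ± 0.29 (adjusted p = 0.00454) and Pbx4 by 0.44 ± 0.11 (adjusted p = 0.00827). Meis1 lay between 4.88 and 7.89 on Nos3-/- arrays of day 11 and between 8.07 and 9.26 on control arrays, without overlap. Of 21 measured Polycomb and Trithorax regulators, 2 were higher at day 11, Phc1 (0.79 ± 0.19) and Ring1 (0.33 ± 0.07), and 2 were lower, Cbx8 (-0.50 ± 0.11) and Kdm6b, a demethylase of the Polycomb mark (-0.40 ± 0.12). Over all genes, 4.41% were higher and 5.29% lower at day 11, and 9.17% and 7.47% at day 0. At day 0, Eed (0.47 ± 0.12), Mtf2 (0.51 ± 0.16), Rnf2 (0.29 ± 0.07) and Gmnn (0.52 ± 0.12) were higher and Phc2 was lower (-0.70 ± 0.16). None of 7 measured genes described as Hox targets was called at day 11, although Epha4 (-0.77 ± 0.25) and Epha7 (-1.04 ± 0.37) were lower at day 0. Among the 5 ParaHox and Evx genes, Evx1 alone was called at day 11.

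Markers of several cell types also differed between the genotypes at day 11, some lists lower and some higher in Nos3-/- embryoid bodies. Their part in the Hox differences was not tested. Over all genes, 5.29% were lower and 4.41% higher at that day. Of 14 measured fibroblast and feeder markers, 8 were lower and 2 higher in Nos3-/- embryoid bodies, with list means from 7.77 to 8.88 on Nos3-/- arrays and from 8.34 to 10.01 on control arrays. Postn (-3.76 ± 0.39) and Col1a1 (-2.91 ± 0.40) were among the 8 lower ones, while the list median was -1.33, against 0.00 over all genes. Of 9 yolk-sac endoderm markers, 7 were lower and 0 higher, with list means from 5.99 to 8.12 on Nos3-/- arrays against 7.49 to 12.46 on control arrays. Of 10 pluripotency markers, 6 were higher and 0 lower, and the list means ran from 9.46 to 11.84 on Nos3-/- arrays and from 9.59 to 10.59 on control arrays. Fgf4 was among them, with 2.85 ± 0.37. Of 11 mesoderm markers, 3 were lower and 1 higher. Of 10 neural markers none was called, with list means from 6.77 to 7.03 on Nos3-/- arrays and from 6.58 to 7.24 on control arrays. Of 10 blood markers 2 were lower, and of 7 cardiomyocyte markers 1 was lower. The fibroblast list also moved over time: 10 of 14 markers fell in Nos3-/- cells and 0 rose, while 7 fell and 3 rose in control cells. Over all genes, 18.1% fell and 13.0% rose in Nos3-/- cells, and 18.2% and 16.0% in control cells. Means of the fibroblast list at day 0 were 9.46 to 10.39 on Nos3-/- arrays and 9.65 to 11.21 on control arrays. At that day 4 of its 14 genes were lower in Nos3-/- cells, against 7.47% of all genes.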

How the data were processed

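RNA from 31 samples was hybridized to 1 array each. The authors deposited log2 intensities summarized with RMA, per the submitters' processing notes; the software version and any batch step are not given in the sources used here. Values ran from 2.32 to 15.01, array medians from 6.13 to 6.23, with 0 missing values and 0 identical arrays. The number of arrays limits the precision.

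Of 45101 probe sets, 34958 carried 1 symbol in the platform table, 932 several and 9211 none. Each gene was read by its probe set of highest mean over all arrays. A linear model with 1 mean for each of the 4 labelled groups (genotype and day) and no replicate block was fitted over 18194 genes (limma 3.58.1, R 4.3.3). The 5 comparisons had 27 residual degrees of freedom, with Benjamini-Hochberg adjustment over all genes and a threshold of 0.05. The fit was tested on simulated data. SE is that of the fit and SD that between arrays. Every measured Hox gene could be named, with genes of the other lists that passed, and the nearest genes of each cluster. Members and lists were chosen with earlier results of these data known. Promoters came from RefSeq (GRCm38.p6). Alternatives covered normalization, filters, probe set choice, variance model, array weights, the samples fitted, a replicate block and omission of each array.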

Additional observations from a re-analysis of the deposited data

Results flagged for a closer look

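In groups of 6 to 10 arrays, 6 of 132 combinations of Hox gene and group had 1 array far from the others, where chance alone gives about 1 in 20, or 6.6. Hoxb13 was 8.09 on control replicate 1 of day 0, with the other arrays of its group between 4.96 and 5.45, and Hoxc13 was 7.62 on the same array, with the others between 5.63 and 6.55. Hoxd9 was 5.82 on Nos3-/- replicate 5 of day 0 (others 6.14 to 6.25). Hoxc5 was 5.98 on control replicate 6 of day 0 (others 5.56 to 5.77). Hoxd12 was 3.90 on Nos3-/- replicate 2 of day 11 (others 4.11 to 4.21) and 3.71 on control replicate 3 of day 11 (others 4.03 to 4.25).

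The change from day 0 to day 11 differed between the genotypes, by a test of the difference itself (limma, adjusted p under 0.05), in Hoxd1 (-2.34), Hoxb6 (-1.29) and Hoxc4 (-0.93). Hoxd1 changed by 0.76 in Nos3-/- cells and 3.10 in control cells, Hoxb6 by -0.89 and 0.40, and Hoxc4 by -0.20 and 0.73.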

How the results depend on the processing

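Of 6667 gene values recomputed, 6504 kept their side of the threshold, 96 lost a call and 67 gained one. The sign changed in 95 of them, in 27 of 165 pairs of gene and comparison, of which 0 were called as reported or under the alternative; Hoxa5 at day 0, for example, was 0.13 as reported and -0.51 with its other probe set. Omitting 1 array at a time, the number of Hox genes lower in Nos3-/- cells at day 11 ran from 12 to 16, and the numbers at day 0 from 0 to 1 in each direction. Over time in Nos3-/- cells, 0 to 3 were higher and 6 to 11 lower; in control cells, 8 to 11 were higher and 4 to 5 lower; the difference in change was lower for 2 to 4. Of the 15 calls at day 11, 11 were kept under every setting that still tested the gene, since the filters on level removed many of these genes. Leaving out genes under the median level keeps 3 of the 33 Hox genes by construction, and left 1 lower at day 11, 0 lower in Nos3-/- cells over time, 1 higher and 0 lower in control cells over time, and 0 for the difference in change. Leaving out the lower tertile removes 16 of the 33 Hox genes by construction. It gave 5 higher and 1 lower in control cells over time, the same counts that the 17 genes kept had as reported. Array weights gave 2 raised in Nos3-/- cells, 9 for the difference in change and 21 lower at day 11. Leaving out Nos3-/- replicate 3 of both days, chosen after seeing the data, gave 2 raised in Nos3-/- cells. Apart from the construction named for the filters on level, the cause of these shifts was not tested. Most Hox genes lay under the median level of all genes, which limits what the arrays resolve.

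With the replicate number as a block, 1 Hox gene, Hoxd1, was raised in Nos3-/- cells over time (0.76, adjusted p = 0.0387), and Hoxd9 (-0.75, adjusted p = 0.0901) and Hoxd10 (-0.89, adjusted p = 0.172) were not called at day 11. Arrays of the same number shared little: their deviations correlated between -0.27 and 0.35, with 2 of 6, 3 of 9, 2 of 6 and 3 of 6 pairs over 0.1, so the numbers were not taken to pair the arrays.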
